A study of Mus musculus with 64 samples.

Results

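The depot difference in the response of C57BL/6J (B6) mouse fat to rosiglitazone (rosi) was measured in 16 RNA-seq libraries out of the 64 of the series. Labels for strain, tissue, diet and agent set the group of each library, and the 4 groups held 4 libraries each. They were epididymal fat (eWAT, a visceral depot) of mice on a high-fat diet (HFD) given rosi, eWAT of HFD mice labelled control, inguinal fat (iWAT, a subcutaneous depot) of HFD mice given rosi, and iWAT of HFD mice labelled control. HFD was thus shared by all 16 libraries, and the labels give no genetic alteration, dose, time, age or sex. The labels also leave unsaid whether the libraries of a group came from different mice. The p-values therefore take in only the variation among these libraries, some of which may be technical. The measure of interest was the interaction, which is the log2 fold change rosi over control in eWAT minus the same in iWAT, and a positive value means a higher log2 change in eWAT.

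Rosiglitazone is a thiazolidinedione that binds and activates PPAR gamma, the nuclear receptor that drives fat cell formation and lipid storage. PPAR gamma acts with the retinoid X receptor on genes of lipid uptake, storage and oxidation, and thiazolidinediones are known to raise mitochondrial genes and Ucp1, the uncoupling protein of brown fat, in subcutaneous fat. Epididymal fat of obese mice is known for the macrophages that gather in it, and it is known to brown less readily than inguinal fat.

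All eWAT libraries were on 1 lane of 1 sequencing run and all iWAT libraries on 1 lane of another run, per the labels. Each effect of rosi therefore lay within 1 lane, while the depots and the runs cannot be told apart in any level set across them. Library depth was 5353293 to 9551251 counts in genes. One library stood apart, replicate 4 of eWAT rosi, with 21330 genes detected against 16781 to 17085 in the rest of its group, 44.6% of reads in no gene feature, and at least 1 count for 16 of 19 epididymis and testis genes against 2 to 5 in each of the other 15 libraries. The summed level of those 19 genes was still only 8.15 CPM (the count scaled to its library's size) in it, against 0.542 to 1.59 CPM in the other 3 of its group. In eWAT control, replicate 1 stood apart in its cell markers: 22 mature adipocyte markers summed to 46005 CPM in it and to 18589 to 27342 CPM in the other 3. In iWAT rosi, replicate 1 lay outside the rest of its group for several genes, named below. The eWAT label was checked against a depot gene. Wt1, a transcription factor of the mesothelium that covers visceral fat, was at 16.4, 6.64, 9.72 and 15.9 CPM in eWAT rosi and 7.92, 9.895, 6.88 and 9.93 CPM in eWAT control libraries, and at 0 in all 8 iWAT libraries.

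Of 13639 genes tested together, rosi raised 4 in eWAT and lowered 0, and it raised 422 and lowered 249 in iWAT (edgeR quasi-likelihood test, Benjamini-Hochberg adjusted p under 0.05). The 4 genes are 0.0293% of those tested in eWAT, and the 671 in iWAT are 4.92%, or 3.09% raised and 1.83% lowered. The interaction called 0 genes in either direction, which is 0% of those tested. At an unadjusted p under 0.05, 590 genes (4.33%) passed for the interaction, 362 (2.65%) with a higher log2 change in eWAT and 228 (1.67%) with a lower one. By the same threshold 1041 genes (7.63%) passed in eWAT, of which 726 (5.32%) were higher and 315 (2.31%) lower with rosi in eWAT, and 1457 (10.7%) were higher and 1119 (8.2%) lower in iWAT. DESeq2 called 3 interaction genes and 73 genes in eWAT, and limma with a weight per library called 4 and 320. Calls in 1 depot and not in the other therefore do not show a difference between depots. Below, only the interaction tests a difference, and calls, sizes or medians of the 2 depots set side by side are descriptions.

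The count of calls in eWAT rested on single libraries. Without eWAT control replicate 4 it was 0 (edgeR), without eWAT control replicate 2 it was 2, and without eWAT control replicate 1 it was 192, while the iWAT count ran from 237 without iWAT rosi replicate 4 to 1008 without eWAT control replicate 1. Among the 4 genes called in eWAT, the call of Mbnl3 was lost without control replicate 4 alone, that of Reep6 without replicate 2 or 4, that of Sptlc3 without replicate 3 or 4, and that of Chrna2 without replicate 2, 3 or 4 of the eWAT controls. Fitted on its 8 libraries alone, eWAT gave 0 calls of 13213 genes and iWAT gave 1689 of 12789, and the coefficient of biological variation shared by all genes was 0.265 in eWAT and 0.155 in iWAT. The standard errors (SE) and edgeR p-values of genes given below come from the joint fit, whose spread per gene is shared by both depots. The median SE there was 0.188 in eWAT and 0.189 in iWAT, against 0.199 in eWAT and 0.137 in iWAT fitted alone. The median 95% interval of an interaction reached 0.567 log2 units to either side, and 63.3% of genes had an interval that lay wholly between -1 and 1.

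**Figure D1:**
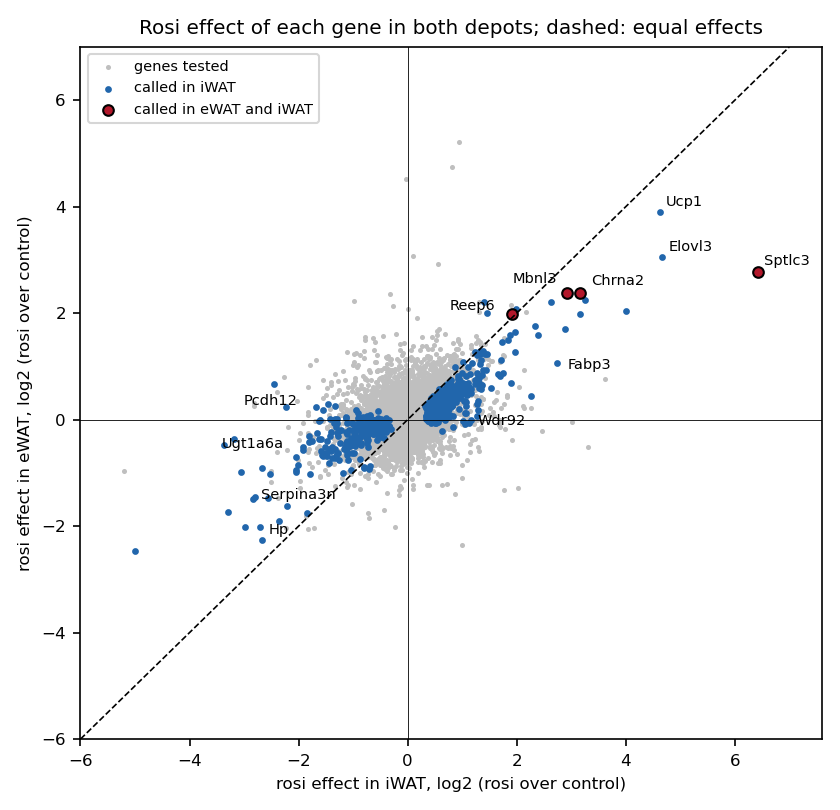
Log2 rosi effect (rosi over control) of each of the 13639 tested genes, in eWAT on the vertical and in iWAT on the horizontal axis, with equal effects on the dashed line, genes called in iWAT in blue and genes called in both depots in red. The 4 genes called in eWAT were all called in iWAT as well, and most genes called in iWAT lie between the dashed line and the horizontal zero line.

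The 4 genes called in both depots were Mbnl3, Reep6, Sptlc3 and Chrna2, and all rose in both. Mbnl3, a muscleblind family RNA-binding protein that acts in splicing, was at 58.5, 62.1, 43.99 and 80.4 CPM in eWAT rosi libraries and 18.6, 12.8, 6.75 and 8.96 CPM in eWAT control libraries. Its iWAT levels were 114, 182, 191 and 182 CPM with rosi and 20.3, 25.03, 15.98 and 26.6 CPM in controls. The groups did not overlap in either depot, and the highest level was in iWAT rosi, where replicate 1 was the lowest of its group. Its log2 change was 2.37 ± 0.28 (SE, adjusted p = 0.00602, edgeR) in eWAT and 2.92 ± 0.28 (adjusted p = 0.000185) in iWAT, and their difference was -0.55 ± 0.39 with a 95% interval of -1.37 to 0.27.

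Reep6, which encodes a membrane protein of the endoplasmic reticulum, was at 12.9, 8.54, 16.1 and 12.04 CPM in eWAT rosi and 3.85, 2.62, 3.63 and 2.34 CPM in eWAT control libraries. It was at 4.83, 4.402, 6.57 and 8.03 CPM in iWAT rosi and 0.888, 1.84, 2.28 and 1.402 CPM in iWAT control libraries. Each rosi group lay above its own control group, and the 2 effects were nearly the same size, 1.98 in eWAT and 1.92 in iWAT on the log2 scale, with an interval of -0.91 to 1.04 for their difference. Chrna2, the alpha 2 subunit of neuronal nicotinic acetylcholine receptors, was at 15.3, 18.03, 14.5 and 29.4 CPM in eWAT rosi and 7.01, 2.86, 2.21 and 2.48 CPM in eWAT control libraries. iWAT rosi libraries had 27.9, 37.2, 40.9 and 37.3 CPM and iWAT control libraries 3.55, 2.15, 4.74 and 5.35 CPM. Again no rosi library fell within its control group, with log2 changes of 2.38 ± 0.35 (adjusted p = 0.0157, edgeR) in eWAT and 3.17 ± 0.35 (adjusted p = 0.000447) in iWAT.

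Sptlc3 had the largest log2 effect of the 4 and the largest gap between depots. It encodes a subunit of serine palmitoyltransferase, the enzyme of the first step of sphingolipid synthesis. It was at 49.1, 27.5, 30.1 and 54.4 CPM in eWAT rosi and 12.1, 1.91, 3.63 and 5.51 CPM in eWAT control libraries. It stood at 49.97, 61.02, 44.6 and 69.4 CPM in iWAT rosi and 0.7401, 0.768, 0.702 and 0.382 CPM in iWAT control libraries. The rosi libraries of both depots overlapped, whereas every eWAT control library lay above every iWAT control library, so the depots differed most in the untreated level. That comparison of levels spans 2 runs, and the iWAT control values rest on 3 to 5 counts per library. The mean rose 6.87-fold in eWAT and 86.1-fold in iWAT by the fitted model, log2 changes of 2.78 ± 0.39 (adjusted p = 0.0144, edgeR) in eWAT and 6.43 ± 0.53 (adjusted p = 4.2e-05) in iWAT. The interaction was -3.65 ± 0.69 (95% interval -5.12 to -2.17), with an unadjusted p of 8.92e-05 and an adjusted p of 0.448 by edgeR over 13639 genes. DESeq2 gave an adjusted p of 0.00149 and a fit of all 64 libraries 0.0106, so the call depended on the method. Over all alternatives run, the adjusted p ranged from 0.00149 to 1 and the interaction from -3.94 to -2.95.

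Sptlc3 was the only one of 17 tested genes of sphingolipid synthesis to pass in either depot. Among all 13639 genes, 0.0293% passed in eWAT and 4.92% in iWAT. The list's median log2 effect was -0.038 in eWAT and 0.035 in iWAT, against -0.0040 and -0.0038 for all genes in the same order.

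**Figure D2:**
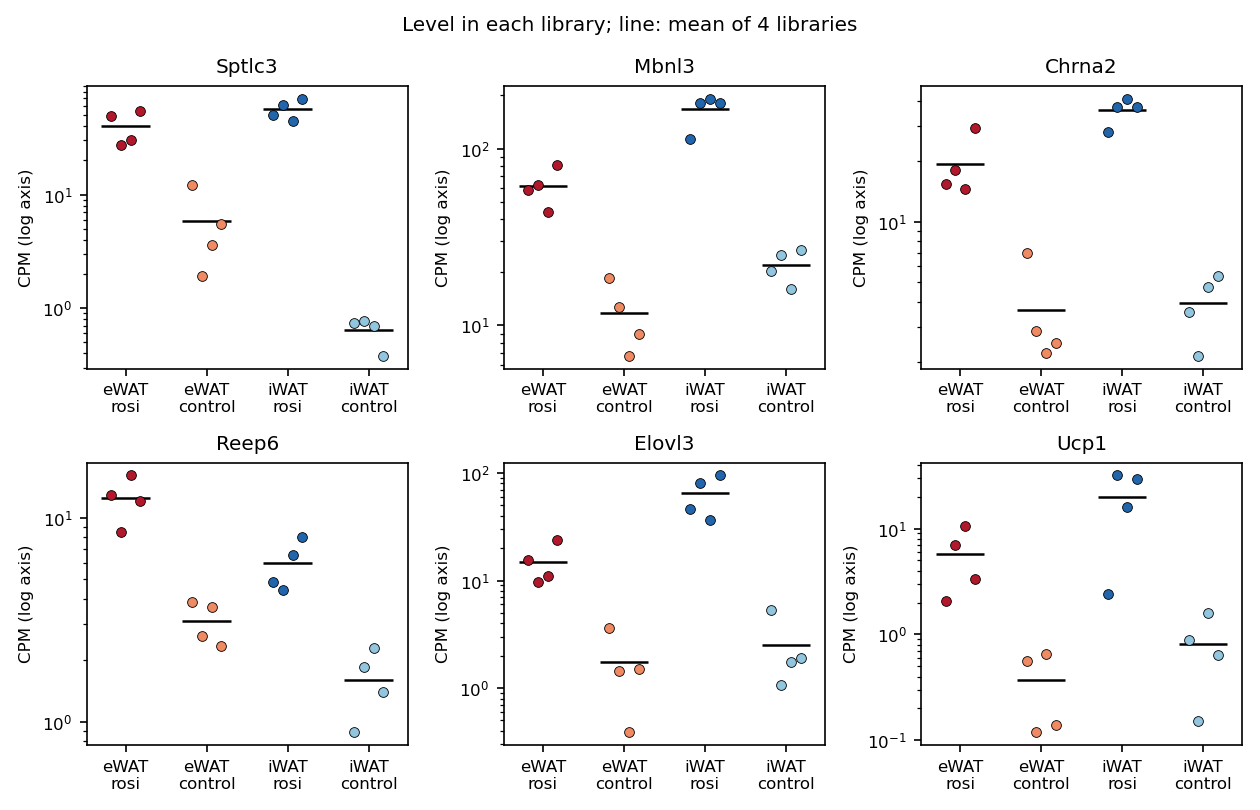
CPM (log axis) of 6 genes in each library of the 4 groups, 1 point per library with the mean of 4 as a line. Rosi libraries lie above control libraries of the same depot for Sptlc3, Mbnl3, Chrna2, Reep6, Elovl3 and Ucp1, and eWAT controls lie above iWAT controls for Sptlc3.

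Ucp1, the gene named in the series title, and Elovl3, a fatty acid elongase abundant in brown fat, were higher with rosi in each depot but passed the test in iWAT only. Ucp1 was at 2.07, 7.05, 10.5 and 3.36 CPM in eWAT rosi and 0.566, 0.119, 0.649 and 0.138 CPM in eWAT control libraries. In iWAT it was at 2.41, 31.8, 16.03 and 29.3 CPM with rosi and 0.888, 0.154, 1.58 and 0.637 CPM in controls. No rosi library overlapped its controls, but iWAT rosi replicate 1, at 2.41 CPM, lay closer to the controls than to the other 3 rosi libraries. The log2 change was 3.90 ± 0.87 (adjusted p = 0.233, edgeR) in eWAT and 4.63 ± 0.76 (adjusted p = 0.00392) in iWAT, and the interaction was -0.73 ± 1.40 with a 95% interval of -3.71 to 2.25. An interval this wide does not show that Ucp1 responded alike in the 2 depots.

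Elovl3 was at 15.7, 9.63, 11 and 23.7 CPM in eWAT rosi and 3.62, 1.43, 0.389 and 1.52 CPM in eWAT control libraries. Its iWAT levels were 46.3, 80.4, 36.9 and 95.01 CPM with rosi and 5.33, 1.07, 1.76 and 1.91 CPM in controls. The 4 iWAT rosi libraries were the highest of all 16. Its log2 change was 3.06 ± 0.53 in eWAT, with an adjusted p of 0.0853 by edgeR, and 4.67 ± 0.52 in iWAT (adjusted p = 0.000447), and the interaction interval was -3.25 to 0.021. Cidea, a lipid droplet protein of brown fat, did not pass in either depot. It was at 2.41, 4.88, 4.14 and 7.08 CPM in eWAT rosi and 2.72, 0.238, 0.259 and 0.551 CPM in eWAT control libraries, where control replicate 1 lay inside the rosi range. iWAT rosi libraries had 21.9, 50.02, 41.1 and 41.7 CPM and iWAT control libraries 22.9, 8.6, 15.6 and 15.04 CPM, with rosi replicate 1 inside the control range.

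The thermogenic brown fat list held 28 tested genes, and 0 passed in eWAT. In iWAT 12 of the list rose and 0 fell, against 3.09% and 1.83% of all genes tested. The list's median log2 effect was 0.82 in eWAT and 0.86 in iWAT, and 12 of 28 interaction values were positive. The eWAT median was 0.38 without eWAT rosi replicate 4 and 1.27 without eWAT control replicate 1. Fabp3, a fatty acid binding protein of muscle and brown fat, had the lowest interaction p of the list. It was at 3.27, 4.75, 4.14 and 2.12 CPM in eWAT rosi and 1.697, 2.03, 1.69 and 1.38 CPM in eWAT control libraries, against 2.97, 8.803, 5.41 and 4.31 CPM in iWAT rosi and 0.444, 0.614, 1.05 and 1.02 CPM in iWAT control libraries. Its log2 change was 1.07 in eWAT and 2.74 in iWAT, where it rose, with an interaction of -1.66 ± 0.52 (unadjusted p = 0.00575, adjusted p = 0.981, edgeR). Cox7a1, a heart, muscle and brown fat form of a cytochrome c oxidase subunit named after its values were seen, rose in iWAT with a log2 change of 1.98 and had one of 1.27 in eWAT. Of 12 tested beige fat selective markers, 1 rose in iWAT, the fatty acid transporter Slc27a1, and 0 passed in eWAT, with medians of 0.35 in eWAT and 0.00096 in iWAT. Sp100, a nuclear body protein, had the lowest interaction p of that list, with log2 values of 0.092 in eWAT and -0.29 in iWAT.

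The sequences before the starts of 3 of these genes, and of Hadhb described below, are shown because PPAR gamma and its partner bind direct repeats of the half-site AGGTCA. Each run holds the 250 bases before the start of the gene in the RefSeq table of build GRCm38.p6, 5′ to 3′ on the gene's strand, and capitals mark an exact AGGTCA on either strand. The windows are chr2:139493663-139493912 (+) for Sptlc3, chrX:51205991-51206240 (-) for Mbnl3, chr8:83290098-83290347 (+) for Ucp1 and chr5:30155003-30155252 (+) for Hadhb.
Sptlc3: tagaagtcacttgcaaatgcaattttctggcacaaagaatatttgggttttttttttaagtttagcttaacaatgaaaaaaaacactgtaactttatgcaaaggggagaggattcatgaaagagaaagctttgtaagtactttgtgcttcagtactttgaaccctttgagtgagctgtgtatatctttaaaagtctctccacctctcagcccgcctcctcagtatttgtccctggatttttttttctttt
Mbnl3: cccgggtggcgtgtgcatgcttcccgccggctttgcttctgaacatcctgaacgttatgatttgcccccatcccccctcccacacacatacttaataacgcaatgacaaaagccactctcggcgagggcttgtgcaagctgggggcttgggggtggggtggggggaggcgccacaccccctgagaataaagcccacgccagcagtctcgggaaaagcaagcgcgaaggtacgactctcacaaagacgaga
Ucp1: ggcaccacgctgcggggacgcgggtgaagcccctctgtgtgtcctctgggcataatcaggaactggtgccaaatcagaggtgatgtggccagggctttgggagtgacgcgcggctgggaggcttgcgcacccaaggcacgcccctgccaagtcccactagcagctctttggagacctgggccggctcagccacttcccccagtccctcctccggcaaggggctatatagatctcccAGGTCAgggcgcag
Hadhb: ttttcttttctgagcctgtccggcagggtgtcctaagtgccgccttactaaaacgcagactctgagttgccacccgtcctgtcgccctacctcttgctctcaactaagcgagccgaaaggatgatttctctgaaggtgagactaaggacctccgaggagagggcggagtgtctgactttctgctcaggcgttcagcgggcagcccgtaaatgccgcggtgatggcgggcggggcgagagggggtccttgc
Ucp1 held 1 half-site, on the + strand at base -14 from the start, and the other 3 windows held 0. AGGTCA stood in 14.024% of the 32851 windows of the same length, with both strands searched. A direct repeat of AGGNCA and AGGNCA with 1 base between them, which can overlap the half-site, stood in 0.338% of windows and in none of the 4 shown. The window of Hadhb shares 228 bases with that of Hadha, which is read in the opposite direction. A match describes letters only, and the known enhancers of Ucp1 lie farther upstream than these windows reach.

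Among genes with a group mean of at least 5 CPM, the 8 with the lowest interaction p in each direction were taken as the best candidates for a depot difference. Of these 16 genes 14 passed the test in iWAT and 1, Sptlc3, in eWAT. The interaction chose them and holds the same libraries, so these counts are a description. Rhbdd3, which encodes a rhomboid domain protein, was at 12.9, 10.8, 12.3 and 12.7 CPM in eWAT rosi and 14.8, 13.1, 14.1 and 14.5 CPM in eWAT control libraries. It stood at 17.6, 18.8, 20.5 and 15.95 CPM in iWAT rosi and 13.03, 10.3, 11.8 and 11.6 CPM in iWAT control libraries. It rose in iWAT, where the groups did not overlap, and the rosi libraries of eWAT all lay below the controls there. Its interaction was -0.85 ± 0.15 (95% interval -1.18 to -0.52, unadjusted p = 5.58e-05, adjusted p = 0.448, edgeR), the lowest p of all genes tested.

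Wdr92, a WD repeat protein, was at 109, 87.9, 85.6 and 92.6 CPM in eWAT rosi and 80.6, 90.1, 84.3 and 88.6 CPM in eWAT control libraries. In iWAT it was at 80.8, 87.2, 110.1 and 118 CPM with rosi and 42.6, 44.7, 56.4 and 46.9 CPM in controls. The eWAT groups overlapped and the iWAT groups did not, and Wdr92 rose in iWAT with a log2 change of 1.06 ± 0.13 (adjusted p = 0.000885, edgeR) against 0.13 ± 0.13 in eWAT. The interaction was -0.93 ± 0.18, with an adjusted p of 0.448 by edgeR, 0.0126 by DESeq2 and 0.0383 by limma with a weight per library. The other 5 genes with the lowest p in this direction, beside Sptlc3, were Coro2a, a coronin that binds actin, Nhej1, a factor of DNA end joining, Rtn4ip1, a mitochondrial protein, Asb8 and 2410006H16Rik. Their interaction values ran from -1.12 for Coro2a to -0.49 for Asb8, and 4 of the 5 rose in iWAT, the exception being 2410006H16Rik with an adjusted p of 0.127.

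In the other direction, Ugt1a6a, a UDP-glucuronosyltransferase that conjugates small molecules, was at 12.7, 8.95, 17.2 and 13.99 CPM in eWAT rosi and 17.4, 16.7, 17.3 and 13.5 CPM in eWAT control libraries. Its iWAT levels were 5.57, 2.801, 3.86 and 3.96 CPM with rosi and 11.5, 15.7, 12.8 and 16.8 CPM in controls. The iWAT groups stood apart and the eWAT groups overlapped. Ugt1a6a fell in iWAT with a log2 change of -1.81 ± 0.22 (adjusted p = 0.000885, edgeR), against -0.30 ± 0.20 in eWAT, and its interaction was 1.51 ± 0.30. The adjusted p of the interaction was 0.448 by edgeR, 0.013 by DESeq2 and 0.0355 in the fit of all 64 libraries. Genes of the Ugt1a cluster share exons, and how the authors' counting treated reads of shared exons is not given.

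Pcdh12, a protocadherin of endothelial cells, was at 6.198, 8.95, 8.45 and 4.07 CPM in eWAT rosi and 11.1, 5.25, 5.58 and 6.48 CPM in eWAT control libraries, against 5.202, 7.203, 6.57 and 6.05 CPM in iWAT rosi and 25.02, 15.7, 16.9 and 19.9 CPM in iWAT control libraries. It fell in iWAT, where no libraries overlapped, and the interaction was 1.60 ± 0.38 (adjusted p = 0.962, edgeR). Without both eWAT control replicate 1 and eWAT rosi replicate 4, Pcdh12 was the 1 gene called for the interaction, at 2.09 with an adjusted p of 0.0295. Vash1, an inhibitor of vessel growth made by endothelium, fell in iWAT and was at 11.2 to 17.5 CPM in iWAT rosi and 27.04 to 45.7 CPM in iWAT control libraries, with an interaction of 1.03. Igfbp4, which binds insulin-like growth factors, was at 262, 196, 286 and 172 CPM in eWAT rosi and 328, 323, 327 and 328 CPM in eWAT control libraries, against 179, 128, 157 and 153 CPM in iWAT rosi and 374, 485, 397 and 361 CPM in iWAT control libraries. No rosi library overlapped its controls in either depot for Igfbp4, which fell in iWAT with a log2 change of -1.39 and had -0.51 in eWAT (adjusted p = 0.419, edgeR). Dach1 and Ets2, both transcription factors, and Csrp1, a LIM domain protein, also fell in iWAT, with interactions of 1.58, 0.77 and 0.73. Cutc, a copper homeostasis protein, was the only one of these 8 that did not pass in iWAT, with log2 values of 0.46 in eWAT and -0.23 in iWAT.

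**Figure D3:**
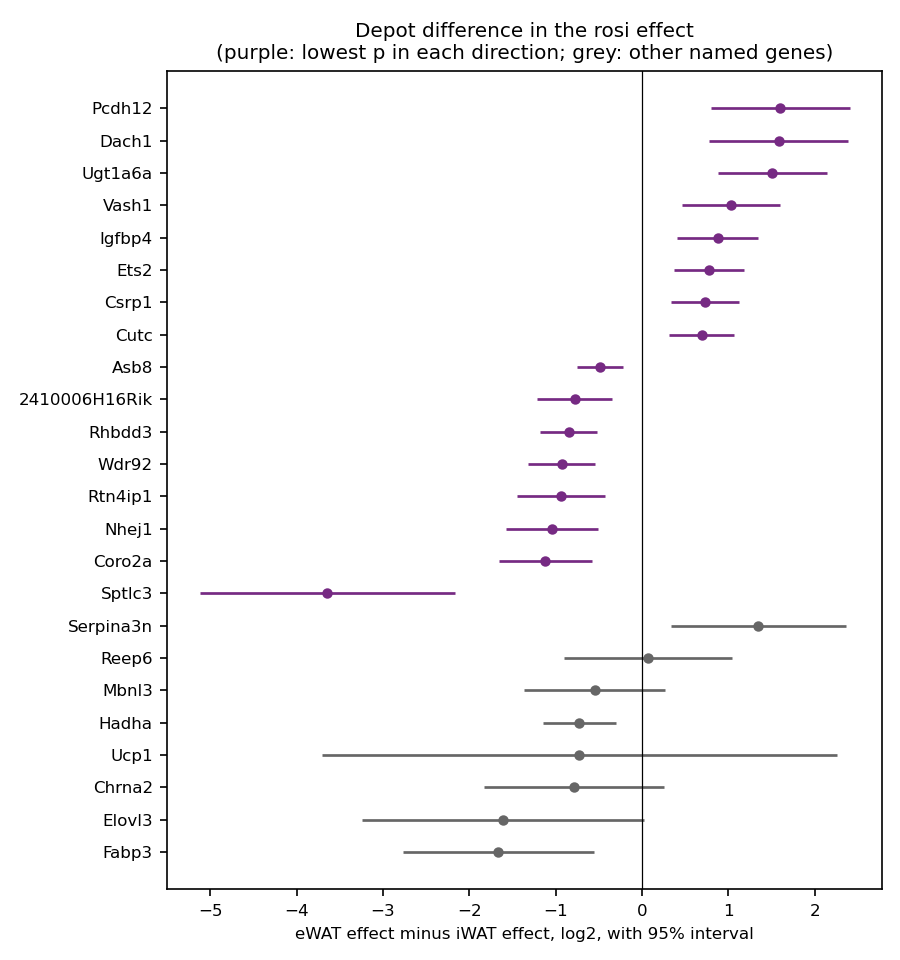
Interaction of each named gene (log2 rosi effect in eWAT minus that in iWAT) as a point, with its 95% interval as a line. The 16 purple genes had the lowest p in each direction and were chosen by it, so their intervals avoid 0. Among the grey genes, the intervals of Mbnl3, Reep6, Chrna2, Elovl3 and Ucp1 include 0, while those of Hadha, Fabp3 and Serpina3n avoid it. The intervals are not adjusted for the number of genes tested.

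Effects had the same sign in both depots for most genes that responded, with the smaller size in eWAT for those chosen in iWAT. Of the 422 genes that rose in iWAT, 406 had a positive log2 value in eWAT, and their median was 0.36 in eWAT and 0.69 in iWAT. Of the 249 that fell in iWAT, 30 had a positive value in eWAT, with medians of -0.22 in eWAT and -0.86 in iWAT. The iWAT values chose these genes, so their size in iWAT is a description. Over all genes tested, 49.3% were positive in eWAT and 49.4% in iWAT. A choice that used neither depot's values was made in separate libraries of inguinal fat from B6/129S1 F1 mice on a low-fat diet, 5 with rosi and 5 labelled control. Of the 100 genes with the lowest p that were higher with rosi there, 98 were tested here: 96 were positive in eWAT and 98 in iWAT, with medians of 0.57 in eWAT and 0.92 in iWAT, and the size was larger in iWAT for 92, against 58.9% of all genes tested. Their median interaction was -0.34, with -0.52 without eWAT rosi replicate 4 and -0.17 without eWAT control replicate 1. Of the 98 tested among the 100 that were lower there, 21 were positive in eWAT and 2 in iWAT, with medians of -0.21 in eWAT and -0.64 in iWAT. Over all genes called in the F1 libraries the gap between the depots was smaller. The size was larger in iWAT for 73.8% of the 2187 tested genes that rose there, with medians of 0.19 in eWAT and 0.33 in iWAT, and for 62.0% of the 2245 that fell there, with medians of -0.12 in eWAT and -0.21 in iWAT. The choice was made in inguinal fat, so it may favour genes that respond in that depot.

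Chosen instead by the lowest p in eWAT, 98 of 100 genes higher in eWAT were positive in iWAT, with medians of 0.79 in eWAT, which chose them, and 0.85 in iWAT, and the size was larger in iWAT for 66. Of the 100 lower in eWAT, 7 were positive in iWAT, with medians of -0.63 in eWAT and -0.45 in iWAT, and the size was larger in iWAT for 39. Where DESeq2 called 73 genes in eWAT, 64 were also called in iWAT and all 64 had the same sign. Over all 13639 genes tested, DESeq2 called 1101 in iWAT. Both sets of calls came from 1 fit with a spread per gene shared by the depots, so their overlap is a description.

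Genes of mitochondrial respiration had positive rosi effects as groups in both depots, although members passed the test in iWAT only. For comparison, the median log2 effect of all 13639 genes was -0.0040 in eWAT and -0.0038 in iWAT. Of these genes, 3.09% rose in iWAT, while in eWAT 0.0293% rose and 5.32% were higher at the unadjusted threshold. All 36 tested genes of complex I, which takes electrons from NADH, were positive in each depot, with a median log2 effect of 0.47 in eWAT and 0.71 in iWAT. In iWAT 29 of the 36 rose, and in eWAT 0 passed at the adjusted threshold and 30 at the unadjusted one. For complexes II to IV and cytochrome c, all 24 genes were positive in both depots, with medians of 0.54 in eWAT and 0.84 in iWAT, and 22 rose in iWAT. ATP synthase had medians of 0.35 in eWAT and 0.57 in iWAT, with 11 of 16 that rose in iWAT. Mitochondrial ribosomal proteins, which translate the mitochondrial genome, had medians of 0.21 in eWAT and 0.44 in iWAT, with all 61 positive in both and 19 that rose in iWAT.

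Interaction values in these 4 lists were mostly negative: 34 of 36 in complex I, 23 of 24 in complexes II to IV, 16 of 16 in ATP synthase and 53 of 61 in the mitochondrial ribosome. Over all 13639 genes tested, 6677 interaction values were positive and the median was -0.0075. No single gene of them passed the test of the interaction, and genes of a list share the same 16 libraries. Without eWAT control replicate 1 the eWAT median of complex I was 0.61, and without eWAT rosi replicate 4 it was 0.34, both below the 0.71 of iWAT. Cox7b, a subunit of cytochrome c oxidase with the lowest interaction p of its list, was at 86.1, 123, 113 and 111 CPM in eWAT rosi and 91.5, 69.7, 70.3 and 78.6 CPM in eWAT control libraries, where rosi replicate 1 lay inside the control range. iWAT rosi libraries had 178, 269, 241 and 247 CPM and iWAT control libraries 118, 97.4, 121 and 106 CPM, with no overlap. Its log2 change was 0.49 in eWAT and 1.08 in iWAT, where it rose, with an interaction of -0.59 ± 0.20. The lowest interaction p in the other 3 lists belonged to Ndufa6 of complex I, at -0.35, Atp5g1 of ATP synthase, at -0.45, and Mrpl15 of the mitochondrial ribosome, at -0.41. Ndufa6 and Mrpl15 rose in iWAT, and Atp5g1 had an adjusted p of 0.0591 there.

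Fatty acid oxidation genes had positive median effects in both depots as well. Beside the counts below, 3.09% of all genes tested rose in iWAT and 5.32% were higher in eWAT at the unadjusted threshold. The list's 26 tested genes had a median log2 effect of 0.70 in eWAT, where 0 passed at the adjusted and 21 at the unadjusted threshold, and of 0.94 in iWAT, where 16 rose. The median interaction of the list was -0.28, and 2 of its 26 values were positive. Without eWAT control replicate 1 that median was 0.017, so its sign depended on that library. The eWAT median without both that library and eWAT rosi replicate 4 is given below. Hadha and Hadhb, the 2 subunits of the mitochondrial trifunctional protein that carries out the last steps of long-chain oxidation, both rose in iWAT. Hadha was at 384, 473, 441 and 485 CPM in eWAT rosi and 314, 261, 264 and 301 CPM in eWAT control libraries. It stood at 578, 879, 806 and 892 CPM in iWAT rosi and 325, 275, 301 and 317 CPM in iWAT control libraries. The groups did not overlap in either depot and the controls of the 2 depots were alike in range, with log2 changes of 0.65 ± 0.14 (adjusted p = 0.214, edgeR) in eWAT and 1.37 ± 0.14 (adjusted p = 0.000288) in iWAT. Its interaction of -0.73 ± 0.20 (95% interval -1.15 to -0.30) had an unadjusted p of 0.0022 and an adjusted p of 0.962 by edgeR. Hadhb, named after its values were seen, had log2 values of 0.84 in eWAT and 1.37 in iWAT, and an eWAT control replicate 1 of 486 CPM that lay inside the eWAT rosi range.

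Pyruvate oxidation and the tricarboxylic acid cycle had medians of 0.48 in eWAT and 0.82 in iWAT. Of their 25 genes 12 rose in iWAT, against 3.09% of all genes tested, and 0 passed in eWAT. The list's median interaction was -0.29, but it was -0.057 without eWAT control replicate 1. Idh3b, a subunit of isocitrate dehydrogenase, rose in iWAT at 1.09 and had 0.54 in eWAT. Chchd10, a protein of the mitochondrial intermembrane space, was named after its values were seen. Chchd10 rose in iWAT at 2.88 and had 1.70 in eWAT, with levels of 44.8 to 66.2 CPM in eWAT rosi, 11.03 to 28.96 CPM in eWAT control, 100.3 to 204 CPM in iWAT rosi and 7.52 to 28.7 CPM in iWAT control libraries, which did not overlap within a depot.

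**Figure D4:**
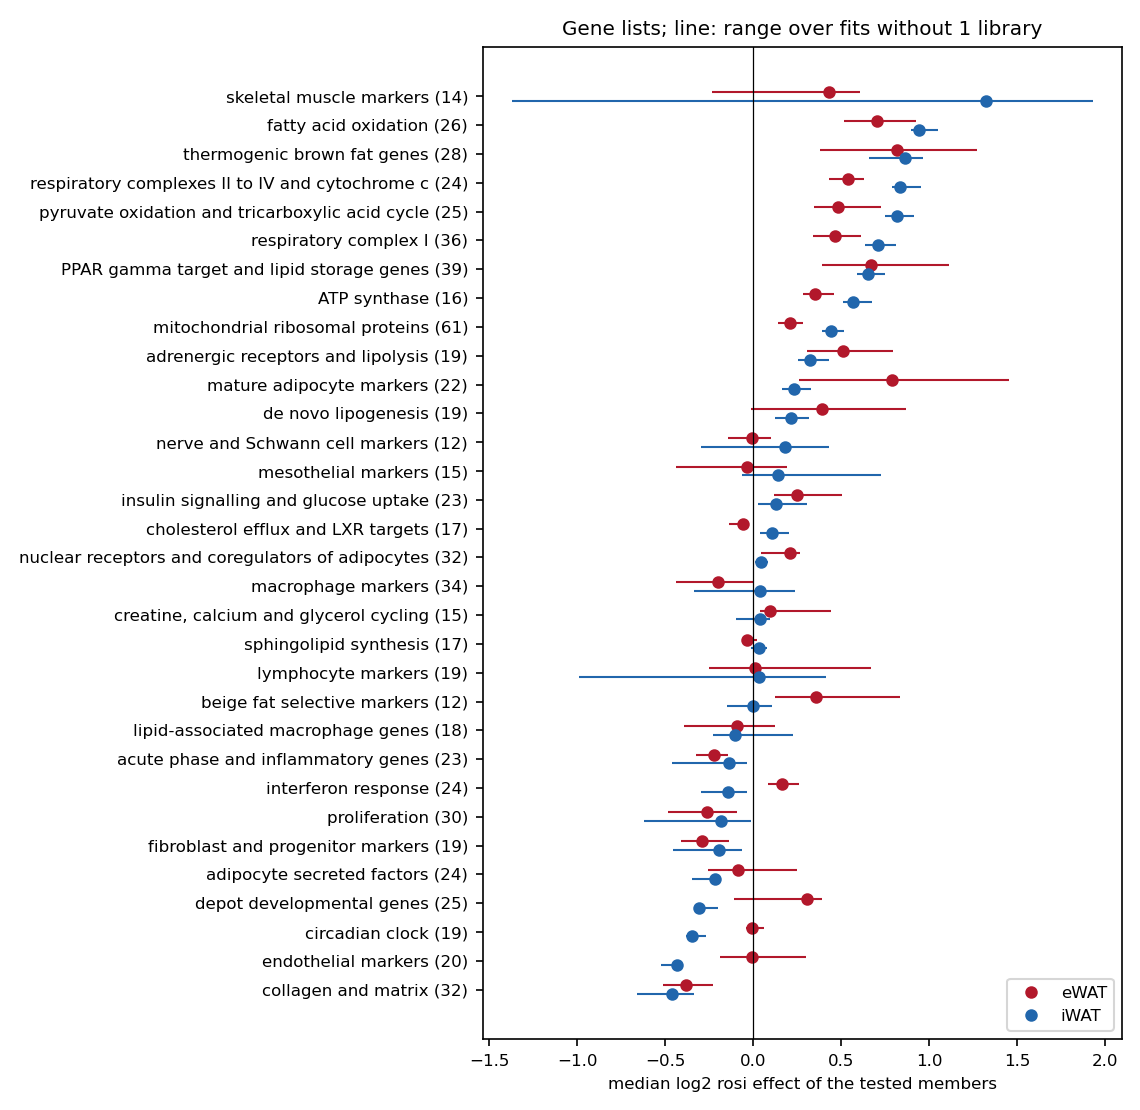
Median log2 rosi effect of the tested members of each gene list with at least 10 tested genes (number in parentheses), in eWAT (red) and iWAT (blue), with the range over fits that each left out 1 of the 16 libraries as a line. Lists of respiration lie to the right in both depots with eWAT to the left of iWAT, and eWAT ranges are wide for lists of fat cell genes.

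Lipid storage genes had positive medians in both depots, and the size of the eWAT one varied with single libraries. Among all genes tested, 3.09% rose in iWAT and 5.32% were higher in eWAT at the unadjusted threshold. The 39 tested PPAR gamma target and lipid storage genes had medians of 0.67 in eWAT and 0.65 in iWAT, with 7 that rose in iWAT and 0 that passed in eWAT, where 18 passed at the unadjusted threshold. The eWAT median was 0.39 without eWAT rosi replicate 4 and 1.11 without eWAT control replicate 1, and the median interaction, 0.17 over all libraries, was -0.20 and 0.68 in the same order. The 41 listed genes summed to 61465 CPM in eWAT rosi replicate 4, against 37608 to 39632 CPM in the other 3 of its group, and to 48235 CPM in eWAT control replicate 1, against 22417 to 31627 CPM in the other 3 controls. Among the 7, Plin5, a lipid droplet coat protein, had log2 values of 2.07 in eWAT and 1.99 in iWAT, and Gpd1, which makes glycerol phosphate, had 1.29 in eWAT and 1.39 in iWAT. Pnpla2, the triglyceride lipase of fat, and Acaa1b, a peroxisomal thiolase, were named after their values were seen, with interaction intervals of -0.999 to 0.91 and -1.54 to 0.82. Gyk, glycerol kinase, was at 45.5, 48.3, 49.6 and 38.1 CPM in eWAT rosi and 50.2, 30.9, 29.8 and 30.9 CPM in eWAT control libraries, where control replicate 1 was the highest of all 8. In iWAT it was at 52.6, 98.6, 89.2 and 116 CPM with rosi and 44.4, 26.7, 39.2 and 36.2 CPM in controls. Gyk rose in iWAT by a log2 change of 1.28, against 0.36 in eWAT, and its interaction was -0.93 ± 0.32 (unadjusted p = 0.0108, adjusted p = 0.998, edgeR).

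Pck1, which supplies glycerol for triglyceride storage, was at 563, 407, 438 and 1121 CPM in eWAT rosi and 363, 107, 114 and 197 CPM in eWAT control libraries, against 1639, 1916, 2109 and 1325 CPM in iWAT rosi and 1259, 1611, 752 and 1079 CPM in iWAT control libraries. All 4 rosi libraries of eWAT lay above its controls, whereas the iWAT groups overlapped. Its log2 change was 1.70 ± 0.40 (adjusted p = 0.272, edgeR) in eWAT and 0.57 ± 0.39 (adjusted p = 0.482) in iWAT, with an interaction interval of -0.057 to 2.31. Pdk4, which shuts off pyruvate oxidation, was at 196 to 293 CPM in eWAT rosi, 49.03 to 194 CPM in eWAT control, 478 to 648 CPM in iWAT rosi and 159 to 267 CPM in iWAT control libraries, and rose in iWAT by a log2 change of 1.42, with 1.23 in eWAT. The iWAT call of Pdk4 held in 11 of 16 fits that each left out 1 library, and those of Pnpla2 and Acaa1b in 9 and 12. Ephx2, the soluble epoxide hydrolase, and Cyp4b1, a cytochrome P450, were named after their values were seen and rose in iWAT. Ephx2 had log2 values of 2.22 in eWAT and 2.63 in iWAT, and Cyp4b1 1.09 in eWAT and 1.02 in iWAT, with adjusted p-values in eWAT of 0.0888 and 0.0839 by edgeR.

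Pparg itself did not pass in either depot, at 94.9, 81.4, 67.1 and 156 CPM in eWAT rosi and 153, 61.3, 52.9 and 86.7 CPM in eWAT control libraries, against 140.4, 251, 190.04 and 174 CPM in iWAT rosi and 232, 174, 139.9 and 184 CPM in iWAT control libraries. Neither pair of groups separated. Fabp4, a fatty acid carrier and classic PPAR gamma target, was at 6208, 5758, 5816 and 12627 CPM in eWAT rosi and 8451, 2514, 1340.2 and 4084 CPM in eWAT control libraries, with 14216, 22486, 20858 and 21393 CPM in iWAT rosi and 13712, 13384, 12135 and 12507 CPM in iWAT control libraries. It passed in neither depot, and its interaction interval was -1.02 to 1.59.

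Fat cell markers overlapped between the rosi and control libraries of eWAT. Adipoq, which encodes the fat cell hormone adiponectin, was at 1363, 973, 1119 and 3513 CPM in eWAT rosi and 2528, 728, 187 and 905 CPM in eWAT control libraries. Its iWAT levels were 3249, 3898, 3842 and 3788 CPM with rosi and 4337, 3151, 4246 and 2764 CPM in controls. In eWAT, rosi replicate 4 and control replicate 1 were the highest of their groups. The 22 mature adipocyte markers summed to 33587 to 63075 CPM in eWAT rosi, 18589 to 46005 CPM in eWAT control, 67515 to 90615 CPM in iWAT rosi and 59983 to 69950 CPM in iWAT control libraries. In bulk tissue, fewer cells of a type and less RNA per cell cannot be told apart. The median log2 effect of the 22 was 0.79 in eWAT and 0.23 in iWAT. Of the 22, 2 rose in iWAT, against 3.09% of all genes tested, and 0 passed in eWAT. The eWAT median was 0.26 without eWAT rosi replicate 4 and 1.45 without eWAT control replicate 1.

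Macrophage markers moved the other way in the same 2 libraries. The 33 macrophage markers counted without Lpl, which fat cells also express, summed to 6564 to 27496 CPM in eWAT rosi, with the lowest value in replicate 4, and to 10036 to 36041 CPM in eWAT control, with the lowest in replicate 1. They summed to 1691 to 5810 CPM in iWAT rosi and 2430 to 5102 CPM in iWAT control libraries. Cd68, a lysosomal marker of macrophages, was at 422, 872, 656 and 179 CPM in eWAT rosi and 258, 662, 772 and 544 CPM in eWAT control libraries, against 122, 27.6, 38.4 and 78.4 CPM in iWAT rosi and 34.2, 23.03, 77.8 and 78.2 CPM in iWAT control libraries. Of all 34 tested markers, 1 fell in iWAT, against 1.83% of all genes tested, and 0 passed in eWAT. The medians of the 34 were -0.20 in eWAT and 0.038 in iWAT, the iWAT one at -0.34 without iWAT rosi replicate 1. Of the 34, 6 were positive in eWAT and 22 in iWAT. Their interaction values were positive for 4, against 6677 of 13639 over all genes tested, with a median of -0.24. Fcgr1, an Fc receptor, had the lowest interaction p at -0.83. With both of these eWAT libraries left out, the eWAT median was 0.46 for complex I, 0.77 for fatty acid oxidation and 0.86 for mature adipocyte markers. The eWAT libraries left still differed in fat cell markers, with Adipoq at 187 to 905 CPM in controls and 973 to 1363 CPM with rosi. The part of cell makeup in these medians and in the other eWAT values was therefore not tested.

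**Figure D5:**
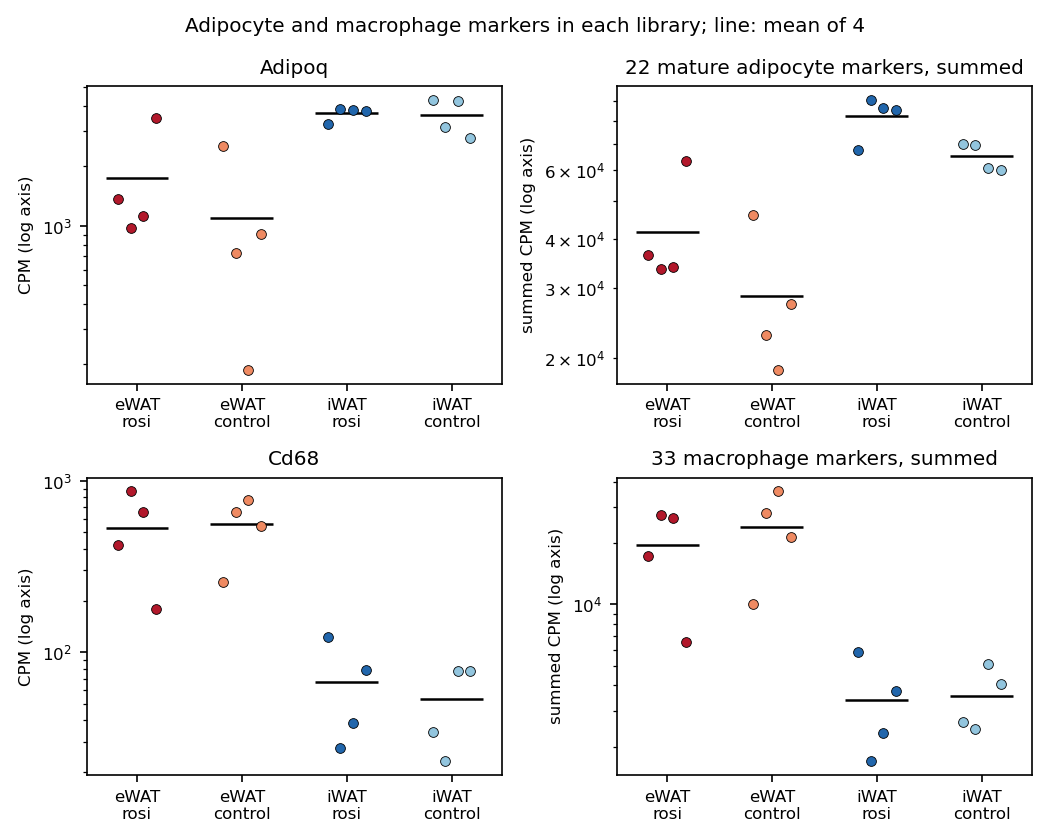
CPM (log axes) of Adipoq, the summed 22 mature adipocyte markers, Cd68 and the summed 33 macrophage markers in each library, 1 point per library with the mean of 4 as a line. In eWAT the library highest in adipocyte markers in each group (rosi replicate 4, control replicate 1) is the lowest in macrophage markers, and all iWAT libraries lie below all eWAT libraries in both macrophage panels.

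A few acute phase genes fell in iWAT and had negative values in eWAT. Serpina3n, a serine protease inhibitor of the acute phase, was at 106, 92.2, 99.9 and 127 CPM in eWAT rosi and 589, 187, 151 and 269 CPM in eWAT control libraries. iWAT rosi libraries had 105, 57.02, 57.4 and 59.7 CPM and iWAT control libraries 443, 433, 581 and 532 CPM. Neither depot's groups overlapped, and control replicate 1 was the highest of eWAT. Its log2 change was -1.49 ± 0.34 (adjusted p = 0.257, edgeR) in eWAT and -2.83 ± 0.36 (adjusted p = 0.00106) in iWAT, with an interaction of 1.34 ± 0.48. The adjusted p of that interaction was 0.998 by edgeR and 0.0273 by limma with a weight per library, and near-identical Serpina3 copies may share its reads. Hp, haptoglobin, named after its values were seen, was at 488, 521, 529 and 742 CPM in eWAT rosi and 5885, 1617, 639 and 2871 CPM in eWAT control libraries, with 877, 501, 500.2 and 456 CPM in iWAT rosi and 2726, 2607, 5164 and 4314 CPM in iWAT control libraries. It fell in iWAT at -2.67, with -2.27 in eWAT, where control replicate 3 lay inside the rosi range. Of 23 tested acute phase and inflammatory genes, 3 fell in iWAT (Hp, Saa3 and Serpina3n), against 1.83% of all genes tested, and 0 passed in eWAT. The list's medians were -0.22 in eWAT and -0.14 in iWAT.

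Cfd, adipsin, a complement factor secreted by fat cells, passed in neither depot. It was at 59.6, 25.5, 49.2 and 265 CPM in eWAT rosi and 311, 37.4, 10.5 and 126 CPM in eWAT control libraries, against 351, 257, 328 and 218 CPM in iWAT rosi and 834, 1848, 719 and 569.5 CPM in iWAT control libraries. The iWAT groups did not overlap, yet the log2 change of -1.78 ± 0.82 had an adjusted p of 0.253 by edgeR. Of 24 tested adipocyte secreted factors, 4 fell in iWAT (Apln, Hp, Saa3 and Serpina3n), against 1.83% of all genes tested, and 0 passed in eWAT.

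Among the genes with the lowest larger p over the 2 depots were H2-Ab1 and H2-Eb1, which encode MHC class II chains that present antigen. Genes of class II were not a list of their own and were not tested as a group. H2-Ab1 was at 187, 192, 149.96 and 173 CPM in eWAT rosi and 324, 330.2, 285 and 388 CPM in eWAT control libraries, against 162, 84.8, 134 and 154 CPM in iWAT rosi and 226, 203, 245 and 251 CPM in iWAT control libraries. No rosi library overlapped its controls in either depot. H2-Ab1 fell in iWAT at -0.79 ± 0.17 (adjusted p = 0.0157, edgeR) and had -0.92 ± 0.17 (adjusted p = 0.0888) in eWAT, and its interaction interval was -0.63 to 0.39. H2-Eb1 had log2 values of -0.88 in eWAT and -0.80 in iWAT. H2-Aa and Cd74, the invariant chain, were added after their values were seen, with -0.92 and -0.87 in eWAT and -0.71 and -0.68 in iWAT. All 4 fell in iWAT and had adjusted p-values of 0.0888 to 0.0943 in eWAT by edgeR. How reads that match more than 1 class II gene were counted is not given. The iWAT calls of H2-Aa, Cd74 and H2-Ab1 held in 9, 10 and 15 of 16 fits that each left out 1 library.

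The same rule named F2r, Plxnd1 and Nid2 among genes that were lower in both depots. F2r, a thrombin receptor, was at 28.1, 22.2, 24.5 and 19.1 CPM in eWAT rosi and 45.1, 34.5, 33.99 and 43.4 CPM in eWAT control libraries, against 18.6, 12.6, 14.9 and 14.7 CPM in iWAT rosi and 26.9, 28.9, 26.2 and 28.8 CPM in iWAT control libraries, with no overlap in either depot. It fell in iWAT at -0.87 and had -0.74 in eWAT (adjusted p = 0.0888, edgeR). Plxnd1, a semaphorin receptor of vessels, had log2 values of -0.95 in eWAT and -1.04 in iWAT, and Nid2, a nidogen of basement membranes, -0.71 in eWAT and -1.33 in iWAT. Both fell in iWAT.

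By their medians, the rosi effect on endothelial markers was negative in iWAT and near 0 in eWAT. The 20 tested endothelial markers had a median log2 effect of -0.0063 in eWAT and -0.44 in iWAT. Of the 20, 2 fell in iWAT (Plvap and Tie1), against 1.83% of all genes tested, and 0 passed in eWAT. All 20 interaction values were positive, against 6677 of 13639 over all genes tested, with a median of 0.45, and 0 passed. Their sum ran from 661 to 950.3 CPM in eWAT rosi and 554 to 1262 CPM in eWAT control libraries, against 1373 to 1856 CPM in iWAT rosi and 2003 to 2323 CPM in iWAT control libraries, so the iWAT groups did not overlap. Tie1, an endothelial receptor, was at 21.2, 20.9, 19.9 and 26.9 CPM in eWAT rosi and 47.6, 19.1, 15.05 and 22.3 CPM in eWAT control libraries, with control replicate 1 the highest, and at 41.1, 50.8, 39.6 and 40.2 CPM in iWAT rosi and 91.3, 77.1, 77.1 and 89.4 CPM in iWAT control libraries. Its iWAT call held in 4 of 16 fits without 1 library. The eWAT median of the list was 0.30 without eWAT control replicate 1 and -0.19 without eWAT rosi replicate 4. Adipocyte marker sums moved with the endothelial ones in eWAT, where both were highest in control replicate 1 and rosi replicate 4 within their groups, and their part in the difference was not tested.

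Of 32 tested collagen and matrix genes, 4 fell in iWAT, against 1.83% of all genes tested, and 0 passed in eWAT. The list's medians were -0.39 in eWAT and -0.46 in iWAT. The 4 were Col4a1, Col4a2, Col18a1 and Col6a6, and the first 3 encode basement membrane collagens. Col18a1 was at 237, 265, 299 and 162 CPM in eWAT rosi and 285, 250.1, 266 and 332 CPM in eWAT control libraries, against 177, 113, 124 and 106 CPM in iWAT rosi and 276, 277, 287 and 294 CPM in iWAT control libraries. Its interaction was 0.89 ± 0.26 (adjusted p = 0.962, edgeR), and limma with a weight per library gave 1.19 with an adjusted p of 0.0435. Of 19 fibroblast and progenitor markers 0 passed in either depot, with medians of -0.29 in eWAT and -0.19 in iWAT, and F3, tissue factor, had the lowest interaction p at -0.75.

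Lists of interferon, clock and cholesterol genes had medians of unlike sign or size in the depots, while 0 of their genes passed the interaction test. For the counts below, 3.09% of all genes tested rose and 1.83% fell in iWAT. The 24 interferon response genes had medians of 0.16 in eWAT and -0.15 in iWAT, 23 of 24 interaction values were positive (6677 of 13639 over all genes), and 0 passed in either depot. Irf7, an interferon regulatory factor, was at 21.9, 21.3, 15.1 and 11.9 CPM in eWAT rosi and 11.9, 10.6, 7.52 and 10.3 CPM in eWAT control libraries, with rosi replicate 4 at the top of the control range. It stood at 32.7, 16.01, 18.5 and 20.8 CPM in iWAT rosi and 23.98, 23.8, 25.1 and 31.9 CPM in iWAT control libraries, where rosi replicate 1 was above all controls and the other 3 were below them. Its interaction was 1.05 ± 0.33 (unadjusted p = 0.00549, adjusted p = 0.973, edgeR). The 19 circadian clock genes had medians of -0.0084 in eWAT and -0.35 in iWAT, with 1 that fell in iWAT, Dbp. Their interaction values were positive for 16 of 19, with a median of 0.32, while Arntl, a core clock transcription factor with the lowest interaction p of the list, was one of the other 3 at -0.77. The 17 genes of cholesterol efflux had medians of -0.057 in eWAT and 0.11 in iWAT, with 3 that rose in iWAT, Lpcat3, Pltp and Scarb1. Pltp, the phospholipid transfer protein, was at 570.1, 560.4, 575 and 475 CPM in eWAT rosi and 367, 637, 806 and 597 CPM in eWAT control libraries, against 406, 462, 366 and 477 CPM in iWAT rosi and 207, 196, 264 and 291 CPM in iWAT control libraries. The iWAT groups did not overlap and the eWAT control values spanned the whole eWAT rosi range, with an interaction of -0.98 ± 0.28 and an iWAT call that held in 11 of 16 fits without 1 library.

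The remaining lists gave few calls, and 3.09% of all genes tested rose and 1.83% fell in iWAT. De novo lipogenesis had 1 of 19 genes that rose in iWAT, Elovl3, and medians of 0.39 in eWAT and 0.22 in iWAT, the eWAT one at -0.010 without eWAT rosi replicate 4. Nuclear receptors and coregulators had medians of 0.21 in eWAT and 0.043 in iWAT with 2 of 32 that rose in iWAT, Esrra and Ppara, adrenergic receptors and lipolysis 0.51 in eWAT and 0.32 in iWAT with 1 of 19, and insulin signalling and glucose uptake 0.25 in eWAT and 0.13 in iWAT with 1 of 23. The lowest interaction p in these 3 belonged to Cebpd at 0.65, Adcy4 at 0.36 and Aldoa at -0.62, and Aldoa, an enzyme of glycolysis, rose in iWAT at 1.08. Creatine, calcium and glycerol cycling had 2 of 15 genes that rose in iWAT, Gpd1 and Gyk, and 1 that fell, Gamt. Of 18 lipid-associated macrophage genes 1 rose in iWAT, with medians of -0.093 in eWAT (0.12 without eWAT rosi replicate 4) and -0.10 in iWAT (0.23 without iWAT control replicate 3), and Plin2, a lipid droplet coat protein, had the lowest interaction p at -0.71. Proliferation genes had 0 of 30 that passed in either depot, with medians of -0.26 in eWAT and -0.18 in iWAT, and Aurka, a mitotic kinase, at an interaction of -0.56. Depot developmental genes had medians of 0.30 in eWAT (-0.11 without eWAT rosi replicate 4) and -0.31 in iWAT, with 1 of 25 that rose in iWAT, Shox2, and Hoxc10, a homeobox gene of the posterior body, was at 0, 0, 0.319 and 1.42 CPM in eWAT rosi and at 0 in all 4 eWAT control libraries, against 3.901, 6.202, 5.601 and 5.71 CPM in iWAT rosi and 5.92, 5.53, 5.79 and 4.59 CPM in iWAT control libraries.

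Markers of other cell types that a dissection could include were counted too, beside the 3.09% of all genes tested that rose and 1.83% that fell in iWAT. Of 19 lymphocyte markers 0 passed, with medians of 0.012 in eWAT and 0.030 in iWAT (-0.99 without iWAT rosi replicate 3), and Cd8a, with 0.186 to 3.80 CPM over the 16 libraries, had the lowest interaction p. Of 15 mesothelial markers 0 passed, 7 interaction values were positive, and Cldn15 had the lowest interaction p at 0.69. Skeletal muscle markers summed to 1231 CPM in iWAT rosi replicate 4, against 96.6 to 144 CPM in the other 3 of its group and 121 to 329 CPM in iWAT control libraries. Of 14 tested muscle markers 0 passed in either depot, 12 were positive in eWAT with a median of 0.43, and 13 were positive in iWAT with a median of 1.32. The iWAT median was -1.37 without iWAT rosi replicate 4, and the eWAT median was -0.24 without eWAT rosi replicate 4. Myh1, a muscle myosin with the lowest interaction p of the list, was the 1 marker with a negative iWAT value, at -2.27. It stood at 0.372, 2.001, 0.773 and 1.16 CPM in iWAT rosi and 11.4, 5.84, 1.05 and 2.68 CPM in iWAT control libraries. Without iWAT rosi replicate 4, iWAT had 237 calls, against 835, 264 and 307 without replicates 1, 2 and 3 of that group. Leaving out 1 iWAT control library gave 299 to 390. Trp63, of epithelium, fell in iWAT and was at 0.929, 0.4002, 0.193 and 0.233 CPM in iWAT rosi and 5.18, 2.303, 3.69 and 3.44 CPM in iWAT control libraries. It was 1 of 6 tested epithelial markers, of which 1 was positive in iWAT, with a median of -0.72 (0.37 without iWAT control replicate 1). S100b, of Schwann cells, fell in iWAT at -1.42, with 0.014 in eWAT, and it was the only one of 12 nerve and Schwann cell markers that passed. Of these 12, 9 were positive in iWAT, with a median of 0.18 (-0.30 without iWAT rosi replicate 1). The iWAT calls of Trp63 and S100b held in 5 and 10 of 16 fits without 1 library. Of 19 epididymis and testis genes 0 passed the filter on low counts. Tspan7, a tetraspanin, and Plekha6 were named after their values were seen, since each was called for the interaction under 1 alternative. Tspan7 had an interaction of 1.43 ± 0.40 and Plekha6 of 1.08 ± 0.53.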

How the data were processed

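RNA was extracted from fat with Trizol and chloroform and RNeasy columns, depleted of ribosomal RNA with Ribo-Zero gold and made into TruSeq libraries, per the labels' protocols. The submitters' processing notes name TopHat2 2.1.0, HTSeq and build mm9. The annotation and strand setting are not given in the sources used here, so reads of overlapping, antisense or near-identical genes cannot be told apart. The authors deposited raw read counts per gene for each library, with 24328 genes and 5 tally lines that were dropped (the tally for no feature took 29.3% to 44.6%). Of these, 13639 passed filterByExpr (minimum count 10, minimum total 15) in the 16 libraries.

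Counts were scaled by TMM and fitted with edgeR 4.0.16 (R 4.3.3) in 1 quasi-likelihood model of 4 group means. Contrasts gave rosi over control in eWAT, in iWAT, and their difference, the interaction. Benjamini-Hochberg adjustment ran over all genes tested and a call is an adjusted p under 0.05. Log2 changes are given with an SE taken as the size of the change over the square root of its F, and CPM are edgeR's, on TMM-scaled library sizes. Named genes were 12 key genes of the response, the 8 lowest interaction p in each direction with a group mean of at least 5 CPM, the member of each of 34 gene lists with the lowest interaction p, and the 5 genes each way with the lowest larger p over both depots in the same direction. Others are said to be named after their values were seen. The comparison, and so its member libraries, and the gene lists were chosen with earlier results of these data known, and the labels alone placed each library in its group. DESeq2 1.42.0 (without independent filtering, same genes) and limma 3.58.1 were alternatives, as were other size factors, no filter, all 64 libraries, a replicate block and leaving out each library. Scripts were tested on simulated data. No libraries were identical (0 pairs). The other groups of the series (other strains, low-fat diet, brown fat, or no agent named) entered only the fit of 64 libraries, and the B6/129S1 F1 inguinal groups also served to choose genes by their rosi effect there.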

Additional observations from a re-analysis of the deposited data

Results flagged for a closer look

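Each group of 4 libraries was searched for a library whose gap to its nearest neighbour took a larger share of the group's range than Dixon's 95% critical value for 4 samples. Values are on the log2(CPM + 1) scale, for the genes the report names and for summed marker lists. Of 332 groups examined 29 were picked out, and chance alone picks out about 1 in 20 groups. The listed values are measurements, and what set these libraries apart was not tested.

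In iWAT rosi, replicate 1 lay below its group for Adipoq at 11.67, against 11.89 to 11.93 in the other 3, for Fabp4 at 13.795 (14.35 to 14.46), for Mbnl3 at 6.84 (7.52 to 7.59), and for Hadhb at 10.08 (10.55 to 10.63). It lay above its group for Serpina3n at 6.73, against 5.86 to 5.92 in the other 3, for Nid2 at 5.36 (5.15 to 5.18), and for Hp at 9.78 (8.84 to 8.97). In iWAT rosi, replicate 2 lay below its group for H2-Eb1 at 6.52, against 7.19 to 7.28 in the other 3. It lay above its group for Tie1 at 5.695, against 5.34 to 5.39 in the other 3, and for F3 at 5.798 (4.73 to 4.87). In iWAT rosi, replicate 4 lay above its group for the sum of skeletal muscle markers at 10.27, against 6.61 to 7.18 in the other 3. In iWAT control, replicate 2 lay below its group for H2-Eb1 at 7.64, against 7.95 to 7.99 in the other 3. In iWAT control, replicate 3 lay below its group for Adcy4 at 4.44, against 4.74 to 4.804 in the other 3. In iWAT control, replicate 4 lay below its group for Sptlc3 at 0.47, against 0.77 to 0.82 in the other 3.

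In eWAT rosi, replicate 1 lay below its group for Cutc at 2.85, against 3.05 to 3.09 in the other 3. It lay above its group for Ets2 at 5.16, against 4.63 to 4.67 in the other 3. In eWAT rosi, replicate 2 lay above its group for Csrp1 at 6.58, against 6.42 to 6.44 in the other 3. In eWAT rosi, replicate 3 lay below its group for H2-Eb1 at 7.16, against 7.55 to 7.596 in the other 3, and for H2-Aa at 7.54 (7.97 to 8.04). In eWAT rosi, replicate 4 lay below its group for Pltp at 8.896, against 9.13 to 9.17 in the other 3. It lay above its group for Fabp4 at 13.62, against 12.49 to 12.6 in the other 3, and for the sum of mature adipocyte markers at 15.94 (15.04 to 15.16). In eWAT control, replicate 1 lay below its group for Plin2 at 10.59, against 11.14 to 11.19 in the other 3. It lay above its group for Gyk at 5.68, against 4.95 to 4.99 in the other 3, and for Adcy4 at 4.13 (3.43 to 3.52). In eWAT control, replicate 2 lay below its group for Ndufa6 at 5.57, against 5.73 to 5.76 in the other 3. In eWAT control, replicate 3 lay above its group for F3 at 5.79, against 5.07 to 5.18 in the other 3. In eWAT control, replicate 4 lay below its group for Ugt1a6a at 3.86, against 4.14 to 4.203 in the other 3. The number of genes detected was 21330 in eWAT rosi replicate 4, against 16781 to 17085 in the other 3.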

How the results depend on the processing

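Against the reported counts of 0 genes for the interaction, 4 in eWAT and 671 in iWAT, DESeq2 called 3, 73 and 1101 in that order, limma with a weight per library 4, 320 and 2353, and a fit of all 64 libraries 3, 152 and 1378. Limma with a weight per depot called 0, 2 and 1672. Each depot's 8 libraries alone gave 0 calls in eWAT and 1689 in iWAT. Median-ratio size factors (0, 4 and 674) and no filter on low counts (0, 5 and 487) stayed within 1.5 times. Leaving out 1 library at a time gave 0 to 0 genes for the interaction, 0 to 192 in eWAT and 237 to 1008 in iWAT. At an unadjusted p under 0.05 the interaction had 458 to 1414 genes over all alternatives, against 590.

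These 3 alternatives were chosen after seeing the data. Without eWAT control replicate 1 and eWAT rosi replicate 4 the counts were 1, 73 and 1604. With the summed macrophage marker level as a covariate they were 2 (Plekha6 and Sptlc3), 176 and 2204. Lpl was then taken out of that sum because fat cells express it, which gave 0, 79 and 1623. The covariate is itself measured in the outcome libraries.

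The labels do not say whether replicate numbers pair the libraries. Deviations of same-numbered libraries from their group means had correlations from -0.40 to 0.58, with 9 of 24 over 0.1. Such a mixed range cannot decide whether they were paired. With the replicate number as a block the counts were 0, 3 and 490, and with the number as a block within agent the interaction had 0.

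Among the log2 values of the named genes under the alternatives, 5512 kept their direction and side of the threshold, 202 passed it anew, 85 no longer passed it and 109 changed sign. Leaving out a single library ended the iWAT call of Acaa1b, Cd74, Dach1, H2-Aa, H2-Ab1, Pdk4, Pltp, Pnpla2, S100b, Tie1 and Trp63 in at least 1 fit. The sign changes were these. With limma and a weight per library, the interaction became 0.25 for Ucp1 and 0.0051 for Pdk4, while the eWAT effect became 0.039 for Cfd, 0.43 for Pcdh12, -0.00076 for Asb8 and 0.044 for Tie1, and the iWAT effect became -0.014 for Aurka and 0.064 for Hoxc10. With the macrophage level including Lpl, the interaction became -0.16 for Pparg, while the eWAT effect became -0.020 for Pparg, -0.024 for Csrp1, -0.029 for Adcy4, 0.030 for Pltp and -0.14 for Myh1, and the iWAT effect became 0.18 for Hoxc10. With the macrophage level without Lpl, the eWAT effect became -0.027 for Csrp1, -0.0084 for Adcy4 and -0.045 for Myh1, while the iWAT effect became -0.058 for Pparg and -0.083 for Adipoq. With the 8 iWAT libraries alone, the iWAT effect became -0.012 for Adipoq. Without both eWAT libraries, the interaction became 0.20 for Pdk4, while the eWAT effect became 0.46 for Pcdh12, -0.025 for Asb8, -0.013 for Atp5g1, 0.022 for Fcgr1 and 0.14 for Tie1. With limma and a weight per depot, the interaction became -0.023 for Reep6, while the eWAT effect became 0.084 for Cfd and -0.23 for S100b. With no filter, the eWAT effect became -0.040 for Csrp1, -0.036 for Asb8, -0.021 for Atp5g1, -0.023 for S100b and -0.016 for Plekha6. With all 64 libraries, the eWAT effect became -0.016 for Csrp1 and -0.013 for Asb8. Over the fits without 1 library, the interaction changed sign within ranges of -0.18 to 0.53 for Pparg, -0.42 to 0.31 for Pdk4, -0.078 to 0.91 for Fabp4, -0.14 to 0.26 for Reep6, -0.24 to 0.0078 for H2-Eb1, -0.065 to 0.29 for Plxnd1, -0.10 to 0.17 for Cyp4b1, -0.73 to 0.30 for Ephx2, -0.66 to 0.22 for Acaa1b and -0.46 to 0.23 for Pnpla2. Over the fits without 1 library, the eWAT effect changed sign within ranges of -0.13 to 0.58 for Pparg, -1.44 to 0.79 for Cfd, -0.18 to 0.28 for Pcdh12, -0.073 to 0.058 for Csrp1, -0.13 to 0.078 for Nhej1, -0.039 to 0.049 for Asb8, -0.083 to 0.090 for Atp5g1, -0.027 to 0.26 for Adcy4, -0.32 to 0.032 for Pltp, -0.57 to 0.10 for Fcgr1, -0.10 to 0.23 for Plin2, -0.42 to 0.24 for Tie1, -1.16 to 2.19 for Myh1, -0.51 to 0.32 for S100b and -0.25 to 0.27 for Plekha6. Over the fits without 1 library, the iWAT effect changed sign within ranges of -0.12 to 0.18 for Pparg, -0.082 to 0.13 for Adipoq, -0.16 to 0.28 for F3, -0.096 to 0.36 for Aurka and -0.10 to 0.098 for Hoxc10. The causes of these changes were not tested. With 4 libraries a group and the eWAT spread given above, an interaction whose interval included 0 could not be told from 0. The intervals were not adjusted for the 13639 genes tested, and the adjusted edgeR test called 0 interactions even where an interval left out 0. The iWAT control values of Sptlc3 rest on few counts.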
